A study of Mus musculus with 4 samples.

Results

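Azgp1, Apod, Sfrp4 and Igfbp3 encode secreted proteins of 4 unrelated families that adipose tissue and its stromal cells release, and their mRNAs were measured in brown adipocytes of the mouse carrying either an NT-PGC-1α vector or an empty one. In the RNA of the NT-PGC-1α cells the Azgp1 probe was 8.21-fold brighter, whereas the probes of Sfrp4, Apod and Igfbp3 were 10.98-fold, 6.71-fold and 1.59-fold dimmer. The genes were selected from measured values: their names come from the study's list of probes that differed on these same arrays, Azgp1 as a higher gene and the other 3 as lower ones. Their directions were therefore fixed by the choice, and the values below describe these genes without testing them. The 4 genes were represented by 4 of the 33012 probes on the array, 1 probe each, and no other probe carried a gene identifier of any of them.

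The cells were immortalized brown preadipocytes of the FVB strain transduced with lentivirus, either with NT-PGC-1α, the short N-terminal splice form of the transcriptional coactivator PGC-1α (hemagglutinin-tagged according to the methods), or with the vector alone. Both groups were differentiated in the same way, for 2 days in growth medium with insulin (20 nM), triiodothyronine (1 nM), indomethacin (250 µM), dexamethasone (2 µg/ml) and isobutylmethylxanthine (0.5 mM), and for 5 more days with insulin and triiodothyronine only. RNA was pooled within each group (the methods and the deposited description give different numbers of RNA samples per pool), and each of the 2 pools was hybridized to 2 arrays, A and B. The arrays of a pool are technical replicates, so that each group is 1 sample of 1 transduced line, and no p-value is given. The range given with a fold is over the 4 ways to pair an array of one pool with one of the other. It measures the spread between technical arrays and holds no variation between cultures or transduced lines. The probe named for Ppargc1a, the expressed gene, read 113.9 and 135.7 in the vector pool. In the pool from NT-PGC-1α cells it read 1078 and 713.9 (7.06-fold higher, range 5.26 to 9.46). Its vector signals were about as low as those of Azgp1 (138.0 and 107.6), so the size of its fold is uncertain. Another probe of the same identifier read 225.6 and 148.6 against 257.9 and 345.2, 1.63-fold higher with a range of 1.14 to 2.32. Which of these probes reads the NT-PGC-1α form was not checked here.

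Azgp1 encodes zinc-α2-glycoprotein, a soluble protein with the fold of an MHC class I molecule that is known for stimulating lipid breakdown in adipocytes. Apod encodes apolipoprotein D, which despite its name is a lipocalin, a small barrel-shaped carrier of hydrophobic molecules such as arachidonic acid. Sfrp4 encodes a secreted frizzled-related protein, which carries the cysteine-rich domain of the Frizzled receptors and binds Wnt ligands outside the cell, and Wnt signalling is known for holding back the conversion of preadipocytes into adipocytes. Igfbp3 encodes the main carrier of insulin-like growth factors in blood, which controls their access to the receptor and also acts on cells directly.

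The promoters of these genes are shown because NT-PGC-1α acts through nuclear receptors bound to DNA and because the 4 mRNAs differed in direction. RefSeq (GRCm38.p6) gave a promoter, 250 bases before to 50 bases after the annotated start, for 3 of the 4 genes, all but Sfrp4. Each is printed 5′ to 3′ on the strand of the gene, and capitals mark the matches to the motifs searched on both strands. Azgp1 lies at chr5:137981271-137981570 on the plus strand, Apod at chr16:31314759-31315058 on the minus strand and Igfbp3 at chr11:7213874-7214173 on the minus strand.
Azgp1: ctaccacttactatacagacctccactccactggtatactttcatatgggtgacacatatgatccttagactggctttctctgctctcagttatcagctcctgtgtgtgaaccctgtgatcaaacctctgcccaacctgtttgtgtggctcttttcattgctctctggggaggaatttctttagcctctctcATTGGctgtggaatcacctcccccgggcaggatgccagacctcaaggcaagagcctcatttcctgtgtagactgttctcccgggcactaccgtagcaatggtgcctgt
Apod: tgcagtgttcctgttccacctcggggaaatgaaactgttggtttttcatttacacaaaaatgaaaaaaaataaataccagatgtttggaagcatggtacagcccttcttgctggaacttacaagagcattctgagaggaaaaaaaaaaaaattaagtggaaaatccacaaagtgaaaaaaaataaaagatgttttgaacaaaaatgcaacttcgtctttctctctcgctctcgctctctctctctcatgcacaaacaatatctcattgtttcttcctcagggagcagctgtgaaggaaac
Igfbp3: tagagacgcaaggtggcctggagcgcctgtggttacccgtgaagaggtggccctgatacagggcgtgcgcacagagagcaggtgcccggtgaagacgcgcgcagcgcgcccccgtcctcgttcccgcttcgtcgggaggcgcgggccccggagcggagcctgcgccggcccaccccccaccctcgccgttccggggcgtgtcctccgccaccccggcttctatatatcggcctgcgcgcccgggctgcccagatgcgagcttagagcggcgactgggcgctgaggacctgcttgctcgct

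The motifs searched were the nuclear receptor element AGGTCA (held by 16.3% of the 32851 promoters in the table), the DR1 element of PPAR and RXR, made of 2 such elements 1 base apart (0.0396%), the ERR element TCAAGGTCA, which contains AGGTCA (0.423%), the TCF/LEF element ATCAAAG (3.73%), the TATA box TATAAA (13.6%), the GC box GGGCGG (35.7%) and the CCAAT box (37.4%). The only match in the 3 windows was a CCAAT box in the Azgp1 promoter, on the opposite strand and 58 bases before the start. Only exact matches were sought, so variants of these elements, such as the run tatata in the Igfbp3 window, are not marked. The windows differed in base composition. The Igfbp3 promoter was 71.7% G and C, above 92.6% of all promoters, and the Apod promoter was 37.3% G and C, above 6.19% of them. The Azgp1 promoter, at 50.3%, lay near the median of 52.7%.

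The Azgp1 probe (621177, mCG6872.2) gave normalized signals of 138.0 and 107.6 in the vector pool, against 937 and 1069 in the NT-PGC-1α pool. The arrays of the pools did not overlap, the NT-PGC-1α pool being higher, and the fold of 8.21 ranged from 6.79 to 9.93 over the pairings of arrays. Such a lack of overlap was common, in 23669 of the 33012 probes. The empty vector signals were near the bottom of the array, brighter than 5.98% of all probes, and with NT-PGC-1α the probe was brighter than 63.4% of them. No measure of background was used here, so whether the empty vector signal lay above background is not known, and the size of the fold is less certain than its direction. With the 5th percentile of all signals added as an offset before the log2 step, it was 4.75-fold.

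The Sfrp4 probe (381109, NM_016687.1) gave 4140.15 and 4423 in the vector pool, against 453.3 and 334.9 in the NT-PGC-1α pool. All NT-PGC-1α values lay below all empty vector values, 10.98-fold lower on average with a range of 9.13 to 13.2. Its mean log2 fold was the largest in size of the 4, though its range overlapped that of Azgp1 in size. The probe was brighter than 77.5% of all probes with empty vector and than 48.8% with NT-PGC-1α. The NT-PGC-1α arrays themselves differed 1.35-fold, more than the arrays of either pool did for any of the other 3 probes.

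The Apod probe (544864, mCG126096.1) gave 1257 and 1335 in the vector pool, against 186.2 and 200.4 in the NT-PGC-1α pool, 6.71-fold lower with a range of 6.27 to 7.17. It was brighter than 66.3% of all probes with empty vector and than 23.9% with NT-PGC-1α, which put it in the dim range of the array. Igfbp3 differed the least. Its probe (833400, mCG16620.2) gave 2745 and 2678 in the vector pool, against 1727 and 1681 in the NT-PGC-1α pool, 1.59-fold lower with a range of 1.55 to 1.63, and it stayed among the brighter probes of both pools, above 73.4% and 69.2% of all probes. After normalization the arrays of a pool differed by at most 1.03-fold for Igfbp3, and before it by at most 1.17-fold. The fold was larger than this, which the choice of the gene on these arrays made likely, and without normalization it was 1.90-fold.

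**Figure D1:**
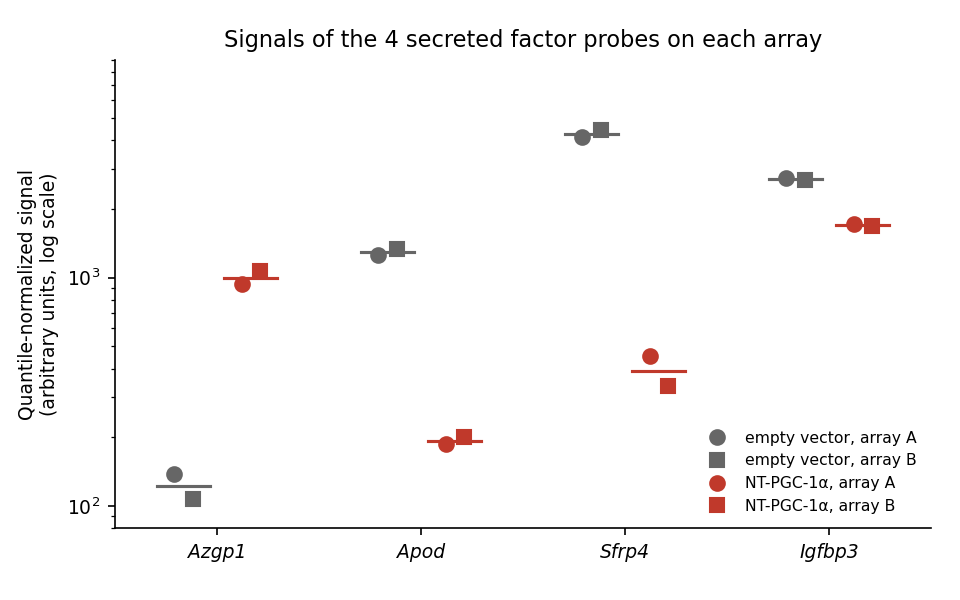
Quantile-normalized signal (arbitrary units, log scale) of the Azgp1, Apod, Sfrp4 and Igfbp3 probes on each array. Grey points are empty vector arrays and red points NT-PGC-1α arrays (circles A, squares B), and short lines are the means of the log2 signals of a pool. Azgp1 went from 138.0 and 107.6 to 937 and 1069, while Sfrp4 went from 4140.15 and 4423 to 453.3 and 334.9.

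Array A was brighter than array B in both pools (median signals of 448 against 398 with empty vector and 442 against 395 with NT-PGC-1α), and the folds were also taken within each letter. Azgp1 was 6.79-fold higher on the A arrays and 9.93-fold higher on the B arrays. Sfrp4 was 9.13-fold lower on A and 13.2-fold lower on B, Apod 6.75-fold and 6.66-fold lower, and Igfbp3 1.59-fold lower on both. Each gene kept its direction within each letter, which had to follow because its arrays did not overlap between the pools. The folds within a letter are among the pairings of the ranges above and add no further check.

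Set among all probes, 3 of the 4 genes stood in the tails. Counting the gene's own probe, 70 probes (0.212%) had a fold at least as high as that of Azgp1, 46 (0.139%) were at least as far down as Sfrp4, and 123 (0.373%) as far down as Apod. For Igfbp3 this number was 5123, or 15.5% of the array. At the study's threshold of 1.5-fold with the arrays of the pools not overlapping, 16.9% of all probes were higher and 17.6% were lower in the NT-PGC-1α pool (5565 and 5802 probes). Under 75th percentile centring of each array the same rule gave 9227 higher and 3759 lower, 71.1% against 28.9% of the calls, where quantile normalization gave 49.0% and 51.0%, and the median log2 fold of all probes moved to 0.22. Azgp1 lay in the second quartile of probes by mean signal over all arrays, in which 24.4% were higher by this rule, and Apod, Sfrp4 and Igfbp3 lay in the third, in which 23.3% were lower. Since the genes were chosen on this contrast, these shares are background and nothing is read from the members against them. Dim probes also varied more between arrays of 1 pool. In the dimmest quartile 22.3% of probes differed by at least 1.5-fold between the empty vector arrays, and 22.2% between the NT-PGC-1α arrays. In the brightest quartile these shares were 1.68% and 1.32%.

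**Figure D2:**
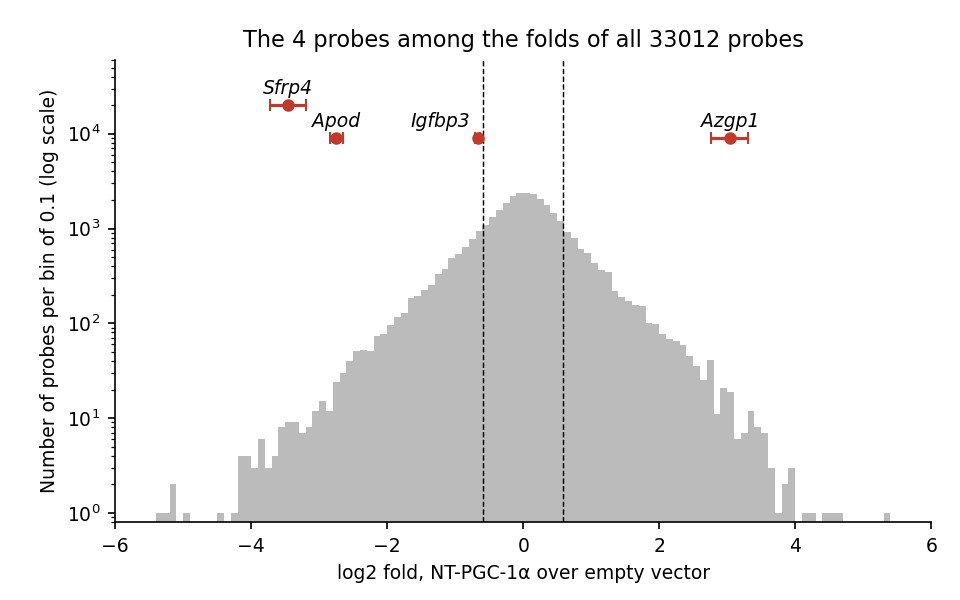
Histogram of the log2 fold (NT-PGC-1α over empty vector) of all 33012 probes in bins of 0.1, with the number of probes on a log scale. Red points mark the 4 genes with the range over the pairings of arrays as bars (their height has no meaning), and dashed lines mark 1.5-fold. Sfrp4, Apod and Azgp1 lie in the tails at -3.46, -2.75 and 3.04, and Igfbp3 lies just past the line at -0.67.

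On the log2 scale, Azgp1 lay 6.49 above Sfrp4, 5.78 above Apod and 3.71 above Igfbp3. Among the 3 lower genes, Sfrp4 was 0.71 below Apod, between 0.35 and 1.07 when the ranges of both genes are combined at their extremes, and the ranges of their folds did not overlap. Igfbp3 stood apart, with differences of -2.08 for Apod and -2.79 for Sfrp4 relative to it.

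Among the other named probes, those with the most similar pattern were found by the root mean square difference of log2 signals over the 4 arrays, each probe centred on its own mean. For Azgp1 these were Smarcc1, a subunit of the SWI/SNF chromatin remodelling complex (difference of 0.06, 8.23-fold higher), Parp6 (0.15, 8.14-fold higher) and Rab27b, a small GTPase of vesicle secretion (0.17, 9.16-fold higher). For Apod they were Ttr, the thyroid hormone carrier transthyretin (0.06, 6.45-fold lower), Nmbr, the neuromedin B receptor (0.08, 7.28-fold lower), and Fxyd3 (0.08, 6.18-fold lower). For Sfrp4 they were the lipid transporter Abca8a (0.04, 10.53-fold lower), the DNA ligase Lig3 (0.09, 11.1-fold lower) and Drd1ip (0.11, 9.45-fold lower). For Igfbp3 they were the smooth muscle actin Actg2 (0.0073), the natriuretic peptide gene Nppa (0.0088) and Sfxn5 (0.0096), which were 1.59-fold to 1.61-fold lower. With only 4 arrays in 2 pools, likeness here means a similar fold and a similar difference between technical replicates. With NT-PGC-1α, Abca8a (110.4 and 83.9) and Lig3 (103.2 and 69.8) read near the bottom of the array, so the sizes of their folds are uncertain.

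The pathways of the members were followed through lists of genes named for each. Symbols were available for 1635 of the 33012 probes, 1342 of them through the study's own list of changed probes, so the counts below describe a choice made on these arrays and are not independent evidence of a direction. Over all probes the median log2 fold was 0.01, over the 1342 probes of the study's list it was 0.39, and over the 293 probes named from RefSeq accessions alone it was -0.01. At 1.5-fold with no overlap, 33.6% of the probes of the study's list were higher and 42.8% were lower (451 and 574), and these are the shares to read the list counts against. The paper took lower genes into this list from 1.5-fold, but higher genes from a smaller fold change. Nearly every lower probe named through it was therefore past 1.5-fold by the choice, while a higher one need not be.

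Of 61 genes listed for Wnt signalling, 8 had a named probe (9 probes), all from the study's list; past 1.5-fold, 4 probes were higher and 5 lower with NT-PGC-1α, with a median log2 fold of -1.0. Without Sfrp4 these counts were 4 and 4 and the median was -0.15. The 2 secreted inhibitors with a named probe were lower, the chosen Sfrp4 among them. Sfrp2, the paralogue of Sfrp4, read 13529 and 13113 in the vector pool, against 3239.95 and 3259.5 in the NT-PGC-1α pool, 4.10-fold lower, with arrays that agreed closely within each pool. The ligand Wnt5b was 2.33-fold higher, from 205.6 and 232.6 to 541 and 481. The receptors differed in direction. Lrp6, the co-receptor of Frizzled, was 3.82-fold higher, and the Frizzled receptor Fzd2 was 2.00-fold and 2.48-fold lower at its 2 named probes. Of the intracellular components, Dvl1, the adaptor that binds activated Frizzled, was 1.62-fold higher, Gsk3b, the kinase that marks β-catenin for destruction, was 2.04-fold higher, and Lef1, a transcription factor that works with β-catenin, was 2.55-fold lower.

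For 4 of these Wnt genes a further probe outside the study's list shared a gene identifier, and it differed less than the named one in each. The further Fzd2 probe was 1.75-fold lower and that of Lrp6 1.68-fold higher. The one of Lef1 was 1.26-fold lower. Those of Lrp6 and Lef1, and the named Fzd2 probe with the 2.48-fold difference, also carry a further identifier, so their signal may not be of these genes alone. The further Gsk3b probe gave 15767 and 16929 in the vector pool, against 16976 and 16867 in the NT-PGC-1α pool, so its groups overlapped and the difference at the named probe was not seen there.

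Of 26 genes listed for the insulin-like growth factor axis, 8 had a named probe, all from the study's list; past 1.5-fold, 2 were higher and 4 lower, with a median log2 fold of -0.16. Without Igfbp3 these counts were 2 and 3 and the median was 0.35, so its sign rested on the chosen gene. Without normalization or under median centring the list had 1 higher probe. The ligand Igf2 was 1.5-fold higher, just under the threshold before rounding, from 1042 and 1046 to 1557 and 1575. The Ins1 probe was 1.76-fold lower, from 28834 and 28654 to 16327 and 16309, and whether it reads Ins1 alone was not checked here. The insulin receptor-related receptor Insrr was 2.21-fold lower. The binding proteins went in opposite directions, since Igfbp5 was 2.12-fold higher, from 332 and 420 to 845 and 741, while Igfbp3 was lower. Their signals cannot be set against each other, because they come from different probes. The proteases that act on binding proteins also split. Pappa, known for cleaving binding proteins and so releasing the growth factor, was 1.60-fold higher at its named probe, but another probe of the same identifier had overlapping groups (467 and 633 with empty vector, 462 and 479 with NT-PGC-1α). Htra3 was 2.19-fold lower. Downstream, the kinase Akt2 was 1.28-fold higher at its named probe, which also carries a further identifier, and 1.85-fold higher at its other probe.

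Of 28 lipocalins and apolipoproteins listed, 9 had a named probe, all from the study's list; past 1.5-fold, 2 were higher and 6 lower, with a median log2 fold of -0.73. Without Apod these counts were 2 and 5 and the median was -0.70, and without normalization or under median centring 1 probe was higher. Among the lipocalins, Apod had the lowest fold. Lcn12 was 2.67-fold lower, and Lcn2, the siderophore-binding lipocalin known as an adipokine, was 1.60-fold lower, from 13772 and 13184 to 8480.28 and 8365. Lcn5 was 1.35-fold higher. The apolipoproteins divided by gene. Apoc4 and Apoc2, the latter the activator of lipoprotein lipase, were 1.73-fold and 1.58-fold higher. Clu (apolipoprotein J), Apoa4 and Apoc3, an inhibitor of lipoprotein lipase, were 2.24-fold, 2.06-fold and 1.66-fold lower. Apod thus differed in direction from Lcn5, Apoc2 and Apoc4 and shared it with the other 5 genes.

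Azgp1 was set beside the genes whose products have the MHC class I fold. Of 31 listed, 6 had a named probe, and past 1.5-fold 1 was higher and 3 lower, with a median log2 fold of -0.44. The higher one was Azgp1, whose direction was fixed by its choice. Without Azgp1 these counts were 0 and 3 and the median was -0.89. Hfe, the regulator of iron uptake, was 1.40-fold higher. The class I genes of the M region, H2-M10.4, H2-M2 and H2-M10.5, were 2.27-fold, 2.01-fold and 1.85-fold lower. H2-Q7, the only one of the 6 named from a RefSeq accession and thus not by the study's list, had overlapping groups, with 66420 and 77855 against 71566 and 73663 (1.01-fold). Class I genes are alike in sequence, and which of them each probe binds was not checked here. For lipolysis, the process Azgp1 is known to stimulate, 2 of 23 genes listed had a named probe. Mgll, which completes the breakdown of triacylglycerol, was 1.33-fold higher, and the fatty acid binding protein Fabp5 was 1.60-fold lower at its named probe, with overlapping groups at a further probe that also carries another identifier (1.06-fold lower).

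**Figure D3:**
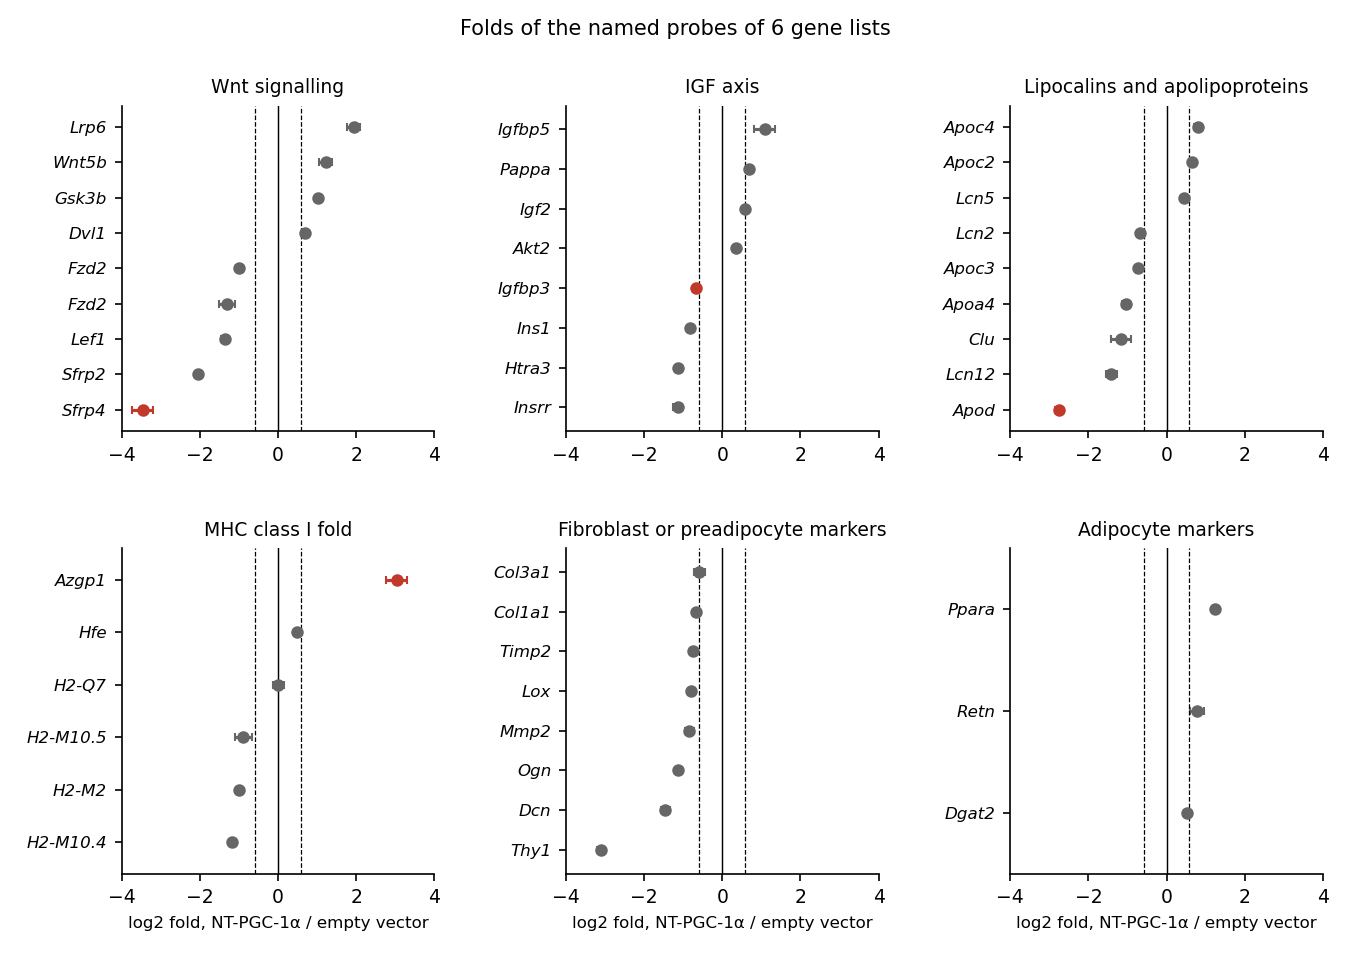
Log2 fold (NT-PGC-1α over empty vector) of each named probe in 6 gene lists, with bars for the range over the pairings of arrays, a solid line at 0 and dashed lines at 1.5-fold. The 4 secreted factors are red and other genes grey. Sfrp4 is the lowest of the Wnt list, Apod the lowest of the lipocalins and apolipoproteins, and Azgp1 the highest of the MHC class I fold, while all 8 named fibroblast or preadipocyte markers lie below 0.

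Among genes for factors that fat tissue secretes, 15 of 33 listed had a named probe (16 probes, all from the study's list and the 4 members included); past 1.5-fold, 5 probes were higher and 11 lower. Without the 4 members these counts were 4 and 8. Without normalization or under median centring, 3 probes were higher and 11 lower, members included. After Azgp1, the highest was Timp4, a metalloproteinase inhibitor, 1.93-fold higher. Retn (resistin), the hormone gene Fgf21 and Angptl4, an inhibitor of lipoprotein lipase, were 1.72-fold, 1.66-fold and 1.57-fold higher. After Sfrp4 and Apod, the lowest was the vascular factor Angpt2, from 5003 and 5144 to 809 and 986, 5.68-fold lower. The acute phase gene Saa3 was 3.5-fold and 3.51-fold lower at its 2 probes, and the chemokine gene Ccl2 was 2.50-fold lower. The range of Angpt2 (5.07 to 6.36) overlapped that of Apod (6.27 to 7.17), while that of Sfrp4 (9.13 to 13.2) lay apart from both. Nothing is read from the gap between Azgp1 and Timp4, since Azgp1 was chosen on this contrast and its empty vector signal was near the floor.

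The fibroblast or preadipocyte markers that had a named probe went in the same direction as Apod, Sfrp4 and Igfbp3. Of 18 such markers listed, 8 had a named probe, all from the study's list, and all 8 were at least 1.5-fold lower (6 of the 8 under 75th percentile centring, with all 8 still lower). Lower genes entered the study's list only past 1.5-fold, so passing this fold was largely set by the naming. In that list 42.8% of probes were lower and 33.6% higher. The listed markers without a named probe were not read. Thy1, a surface protein of stromal cells, was 8.59-fold lower, from 4294 and 3950.23 to 463 and 496, and the matrix proteoglycan gene Dcn was 2.73-fold lower. The summed signal of the 8 was 534078 to 570553 with empty vector and 336689 to 356329 with NT-PGC-1α, the largest part of it from Col3a1. Col1a1 was 1.59-fold and Col3a1 1.5-fold lower. Of 14 adipocyte markers listed, 3 had a probe named in the study's list, Ppara, Retn and Dgat2, which were 2.38-fold, 1.72-fold and 1.43-fold higher, and their summed signal was 133743 to 134971 with empty vector and 190859 to 205899 with NT-PGC-1α. Nearly all of that sum was the Dgat2 probe (127276 and 128047 against 190334 and 175837), so it says little of the other 2 genes. Without normalization or under median centring, 1 of the 3 was past 1.5-fold in place of 2. The markers that define adipocytes best, such as Pparg, Fabp4, Adipoq and Ucp1, were not analysed here, so the labelled cell type could be checked on these 3 genes alone. Of 9 macrophage markers, 3 had a probe named in that list, with Cd68 2.43-fold and Lyzs 1.97-fold lower and Cd14 1.37-fold higher. Fewer cells of a type and less RNA per cell cannot be told apart in a pool of RNA. The part of these cell markers in the lower signals of Apod, Sfrp4 and Igfbp3, or in the higher signal of Azgp1, was not tested.

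**Figure D4:**
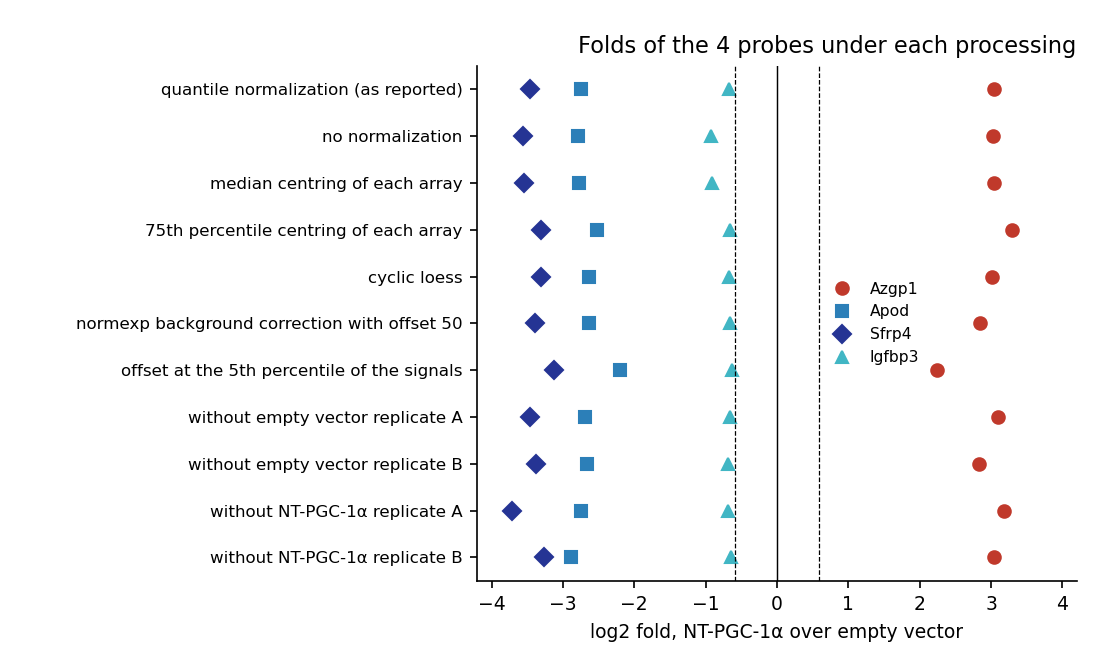
Log2 fold (NT-PGC-1α over empty vector) of the 4 probes under quantile normalization and 10 other settings, with a solid line at 0 and dashed lines at 1.5-fold. All points stay on their side of 0 and beyond the dashed lines. Azgp1 moved the most, to 2.25 with the 5th percentile offset, and Igfbp3 lay between -0.93 and -0.64.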

How the data were processed

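Pooled RNA was labelled with digoxigenin and hybridized to ABI Mouse Genome Survey arrays, which the authors scanned and digitized on a chemiluminescent analyzer. The authors deposited an intensity on a linear scale for each of 33012 probes on 4 arrays, without normalization across arrays, and their later quantile normalization (R 2.2.1 per the submitters' processing notes) and filters on signal to noise and flags are not in these values. Whether background had been subtracted is not given in the sources used here. A single label and the small number of arrays limit the precision.

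The log2 intensities were normalized here by quantiles (R 4.3.3, limma 3.58.1), with no offset and no probe removed. A fold is the difference of mean log2 signals between the pools. The calculation was tested on simulated data in which few probes changed, evenly up and down, with noise from the spread between arrays of a pool. Many probes differed in the real data, a setting which that simulation does not cover, so it checks the calculation alone. Python 3.11.15, numpy 2.4.6, pandas 2.3.3, scipy 1.17.1 and matplotlib 3.10.9 served for the rest.

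The members, gene lists and motifs were chosen with earlier results of these data known. Probes were named from the paper's supplementary list of changed genes (names alone; its fold changes and p-values were not used) or, for 293 probes, from RefSeq accessions. In addition to the members and Ppargc1a, genes of the fixed lists and the 3 named probes most like each member are named. A gene of the insulin-like growth factor list is not reported here, and its list was counted without it. Probes sharing an identifier with a list gene were added after their values were seen. The alternatives tried were other normalizations, background correction or an offset, a signal filter, leaving out each array, and the methods' t-test, which sets 2 arrays against 2 within 1 pool per group.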

Additional observations from a re-analysis of the deposited data

How the results depend on the processing

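All 40 log2 folds of the 4 members under the 10 other settings kept their direction and stayed at least 1.5-fold, and 31 of them moved by no more than the spread between arrays. These values rest on the same 4 arrays on which the members were chosen, and the share of all probes that did the same was not computed. Leaving out 1 array moves the mean of a pool by less than this spread, apart from the new normalization. Those settings were therefore nearly bound to count among the 31, and nothing is read from that count. An offset equal to the 5th percentile signal gave 2.25 for Azgp1, -2.21 for Apod and -3.13 for Sfrp4. For Apod, 75th percentile centring gave -2.53, cyclic loess -2.64 and normexp background correction -2.63. For Igfbp3, no normalization gave -0.93 and median centring -0.91. With 1 array left out, the folds lay between 2.83 and 3.18 for Azgp1, -2.89 and -2.66 for Apod, -3.72 and -3.27 for Sfrp4, and -0.69 and -0.64 for Igfbp3. The 11367 probes past 1.5-fold became 5956 with the filter on the array median, 6522 with the methods' t-test at an unadjusted threshold of 0.05 and 151 after Benjamini-Hochberg adjustment (59 higher and 92 lower); this test has only the spread between arrays as its error, and the causes of these moves were not tested. The mean over probes of an identifier could not be run, since each member has 1 probe. No paired analysis was possible because the folds come from no test, and the letters A and B mark technical arrays of 1 pool per group; the folds within each letter are given above as values. Signals near the floor of the array, as for Azgp1 with empty vector, limit the size of a fold.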
